A study of Mus musculus with 7 samples.

Results

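The cytosolic ribosomal protein genes encode the protein part of the ribosomes that translate nuclear messenger RNAs. They were taken by name from the table of all genes, as symbols made of Rpl, Rps or Rplp followed by a number and at most 1 further letter (a, x or l). Pseudogenes whose symbols end in ps and a number were left out. The rule gave 80 of the 46959 features, 49 of the large subunit and 31 of the small subunit. RNA had been measured in mouse splenic B cells kept in culture for 4 days with lipopolysaccharide (LPS, 1 µg/mL), a bacterial activator of B cells, and interleukin 4 (IL-4, 20 ng/mL), a cytokine that directs class switching. The 2 groups were 3 libraries of the genotype WT and 4 of the genotype cKO MED1, which is named for a subunit of the Mediator complex that links transcription factors to RNA polymerase II. All 7 shared the tissue, the cell type, LPS and IL-4. The labels name no strain, no age, no Cre driver and no allele, and they do not state from how many animals the replicates were taken. The p-values below therefore cover only the spread between these libraries, which may be technical. The cKO MED1 libraries differ in sex by the Ddx3y reads given below, so their spread is not technical alone.

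A eukaryotic ribosome joins a small subunit, which reads the messenger RNA, to a large subunit, which forms peptide bonds. Most of its proteins are present in 1 copy per ribosome, and cells hold the genes' mRNAs at high and similar levels. Many of these mRNAs begin with a run of pyrimidines, the 5' terminal oligopyrimidine tract, through which mTOR and LARP1 control their translation as a group. B cells that leave rest after activation enlarge and make more ribosomes before they divide and secrete antibody. Mammalian genomes also carry many intronless copies of these genes, most of them annotated as processed pseudogenes.

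Whole reads were recovered from the deposited values and numbered 54736580 to 61149274 in the WT libraries and 31937372 to 49603193 in the cKO MED1 libraries. The values below are normalised reads, which are those reads scaled with TMM factors to a common library of 48019763 reads. A fold change is the cKO MED1 mean minus the WT mean of log2(normalised reads + 1), tested with limma across 18062 genes, and a gene is called at a Benjamini-Hochberg adjusted p under 0.05. Med1 itself had 4380 ± 326 normalised reads (SD, n = 3) in WT and 2361 ± 186 (SD, n = 4) in cKO MED1, which gave a log2 fold change of -0.89 (limma, adjusted p = 0.000174). The 6 B cell markers summed to 167756 to 180920 normalised reads in WT and to 117532 to 132624 in cKO MED1, and 5 of the 6 were called lower. The 4 plasma cell markers summed to 68132 to 104025 in WT and 38493 to 58822 in cKO MED1, with Jchain and Sdc1 called lower (-1.58 and -1.22) and Prdm1 called higher (0.71). The 4 neutrophil markers summed to 2.75 to 10.6 in WT and 19.0 to 64.1 in cKO MED1, with Mpo called higher and no overlap between the groups' sums. These are few reads, and within each group their sums kept the library order of the receptor gene level given with Rpl3l below. The 6 erythroid markers summed to 135 to 247 and 134 to 484, with Hba-a1 called higher at 2.62 and Hbb-bt called lower at -1.47, and the 5 T cell markers summed to 22.0 to 37.5 and 20.3 to 119, with none called. The part of other cells in the results below was not tested. Mitochondrial ribosomal RNA took 19.1% to 24.3% of the reads in WT and 23.2% to 38.4% in cKO MED1. Ddx3y, a gene of the Y chromosome, was read in the 3 WT libraries and in 1 of the 4 cKO MED1 libraries (replicate 3), so only that cKO MED1 library matches the WT libraries in sex. With sex added to the fit, 228 of the 18062 genes were called, against 5065 without it. In bulk RNA, fewer cells of a type and less RNA per cell cannot be told apart.

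Of the 80 genes, 78 passed the filter on low values. Rpl10l and Rpl39l did not pass. Among the 78, 2 were called lower in cKO MED1 (Rpl29 and Rps4l) and 1 was called higher (Rpl3l), whereas 14.6% of all tested genes were called lower and 13.4% higher. The median log2 fold change was 0.06 over the 78 genes and 0.04 over all 18062. In 3 of the 78 genes every cKO MED1 library lay below every WT library, and in 1 every cKO MED1 library lay above, against 19.8% and 19.3% of all tested genes. A further comparison is with genes at least as abundant as Rpl24, the least abundant of the ubiquitous members at a mean of 2425 normalised reads. Among those 2757 genes, 790 were called lower and 134 higher, with a median log2 fold change of -0.16. The 75 members other than the 3 called genes ranged from -0.29 for Rplp0 to 0.45 for Rps24, with 44 above 0 and 31 below.

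**Figure D1:**
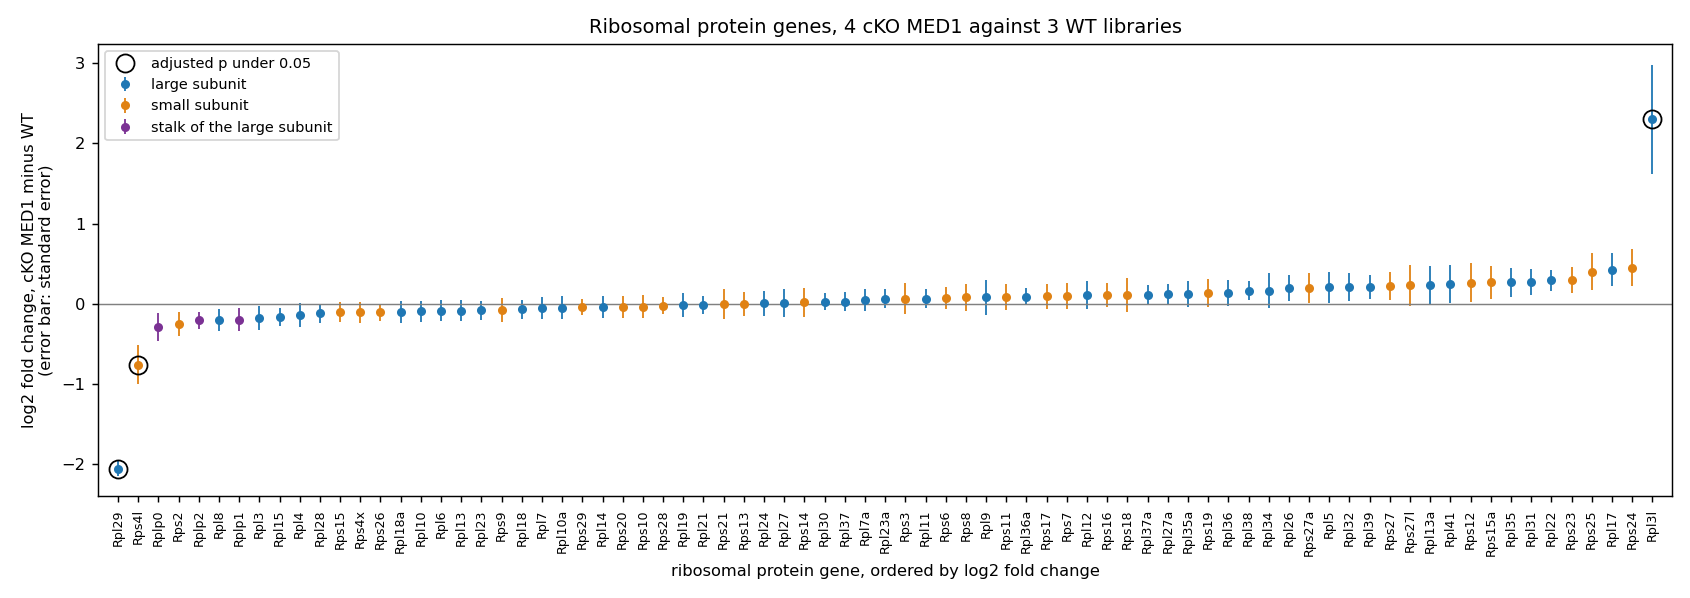
Log2 fold change (vertical axis, cKO MED1 minus WT, with its standard error) of 77 of the 78 tested ribosomal protein genes, ordered along the horizontal axis and coloured by subunit, with rings around genes called by limma. Rpl29 at -2.05, Rps4l at -0.75 and Rpl3l at 2.30 stand apart from the other genes, which lie between -0.29 and 0.45.

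The family moved together from library to library. Relative to the WT mean of each gene, the median of the 78 genes was -0.04, 0.12 and -0.08 in the WT libraries, by replicate number, and -0.28, 0.26, 0.14 and 0.01 in the cKO MED1 libraries, all as log2 differences. The cKO MED1 libraries therefore held both the lowest and the highest median, and the groups overlapped. Of the 75 genes, 60 had their lowest value in cKO MED1 replicate 1 and 55 had their highest in cKO MED1 replicate 2. A single component held 82.2% of their variance over the 7 libraries, and the median correlation between pairs of genes was 0.79 over these 7 points, which share library and scaling.

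**Figure D2:**
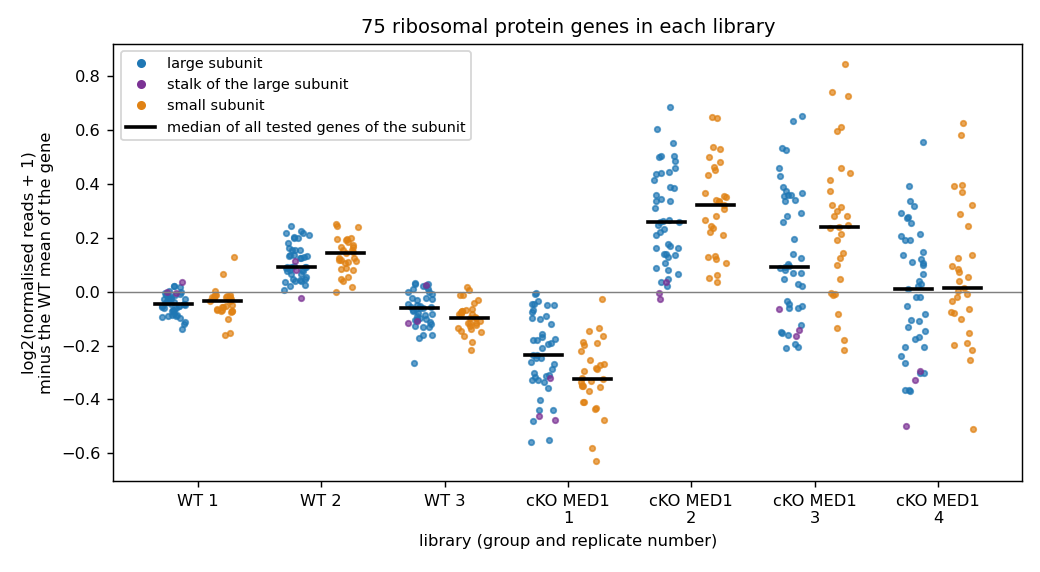
Each point is 1 of 75 ribosomal protein genes in 1 library, as log2(normalised reads + 1) minus the mean of that gene over the WT libraries, with large subunit genes to the left, small subunit genes to the right and black bars at the subunit medians. Large subunit medians run from -0.23 in cKO MED1 replicate 1 to 0.26 in cKO MED1 replicate 2, and stalk genes lie low among large subunit genes in all 4 cKO MED1 libraries.

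One library decided how many genes were called. Without cKO MED1 replicate 1, 15 of the 78 genes were called higher by limma and 2 lower. As a share, the 15 lie near the 16.9% of all tested genes called higher in that fit. The 15 comprised 7 of the large subunit (Rpl39, Rpl34, Rpl22, Rpl31, Rpl35, Rpl17 and Rpl3l) and 8 of the small subunit (Rps27a, Rps27, Rps23, Rps15a, Rps12, Rps27l, Rps25 and Rps24). Their log2 fold changes in that fit ran from 0.33 for Rpl39 to 0.66 for Rps24, and to 2.57 for Rpl3l. The family median in that fit was 0.14. The other libraries, left out in turn, left 0 or 1 genes called higher and 1 or 2 called lower.

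The genes together took 6.67%, 6.996% and 6.28% of all reads in WT and 5.21%, 7.32%, 6.02% and 5.04% in cKO MED1, that is 6.65% ± 0.356 (SD, n = 3) and 5.90% ± 1.04 (SD, n = 4). With mitochondrial ribosomal RNA left out of the total, the shares were 8.50% ± 0.662 (SD, n = 3) and 8.66% ± 1.53 (SD, n = 4). The direction of the difference between the means thus depended on the denominator, and in both cases the groups overlapped.

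Large and small subunit genes differed by less than the spread between libraries. The median log2 fold change was 0.03 over 47 large subunit genes, with 1 called lower and 1 higher, and 0.07 over 31 small subunit genes, with 1 called lower. The large subunit median minus the small subunit median was -0.01, -0.05 and 0.03 in the WT libraries and 0.09, -0.06, -0.15 and -0.003 in the cKO MED1 libraries. Large subunit genes had 1.56 ± 0.0284 (SD, n = 3) times as many reads as small subunit genes in WT and 1.48 ± 0.0894 times (SD, n = 4) in cKO MED1. That ratio was lowest in cKO MED1 replicate 3, at 1.41, and highest in cKO MED1 replicate 1, at 1.61, so both extremes lay in the same group.

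Rpl29, a small basic protein of the large subunit that is also known to bind heparin, was the member that stood furthest below the family. It lies at chr9:106429454-106431568 on the plus strand of GRCm38. Its normalised reads were 14415, 14327 and 13587 in WT and 3234, 3829, 3394 and 3199 in cKO MED1. The groups were far apart, with each of them tight within itself. The log2 fold change was -2.05 with a standard error of 0.09 (limma, adjusted p = 4.26e-07), and the cKO MED1 mean was 24.2% of the WT mean.

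Rpl29 has 45 near-identical copies among the features of the table, meaning transcripts that match at least 90% of the bases over at least 50% of its coding sequence on the same strand. The match also had to span at least 50% of the copy's own transcript, so copies within longer transcripts were not counted. Of the 20 copies that were tested, 10 rose in cKO MED1 and 3 fell. The summed reads of all 45 copies were 4577, 5342 and 4753 in WT and 14392, 17034, 14574 and 13973 in cKO MED1. Copies held 25.7% ± 1.54 (SD, n = 3) of the reads of Rpl29 and its copies together in WT and 81.4% ± 0.258 (SD, n = 4) in cKO MED1.

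Gm13841, a processed pseudogene at chr5:115801677-115802159 that is 99.4% identical to the Rpl29 coding sequence, had the most reads of the risen copies. It had 81.2, 515 and 156 normalised reads in WT and 8122, 9646, 8322 and 7950 in cKO MED1, a log2 fold change of 5.50 (limma, adjusted p = 3.29e-05). Gm6344 on chromosome 13 went from a WT mean of 219 to a cKO MED1 mean of 1789. Gm15454 and Gm8210, both on chromosome 1, went from WT means of 15.3 and 19.7 to cKO MED1 means of 912 and 842. In each of these 4 copies every cKO MED1 library lay above every WT library. The 3 copies that fell were Gm17669, from 1533 to 219, Gm12447, from 462 to 33.0, and Gm5561, from 1384 to 1051.

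Summed over Rpl29 and its copies, the reads did not differ beyond the spread. The sums were 18983, 19689 and 18317 in WT and 17591, 20894, 17986 and 17179 in cKO MED1. The log2 fold change of the sum was -0.05 with a standard error of 0.10 (limma, adjusted p = 0.739). Read as 1 unit with its copies, Rpl29 therefore lay inside the range of the family. After such a sum for every member, 2 of the 78 genes were called in either direction (Rps4l and Rpl3l), where 28.8% of the features tested in that fit were called. Summing was chosen after the values of the copies had been seen.

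**Figure D3:**
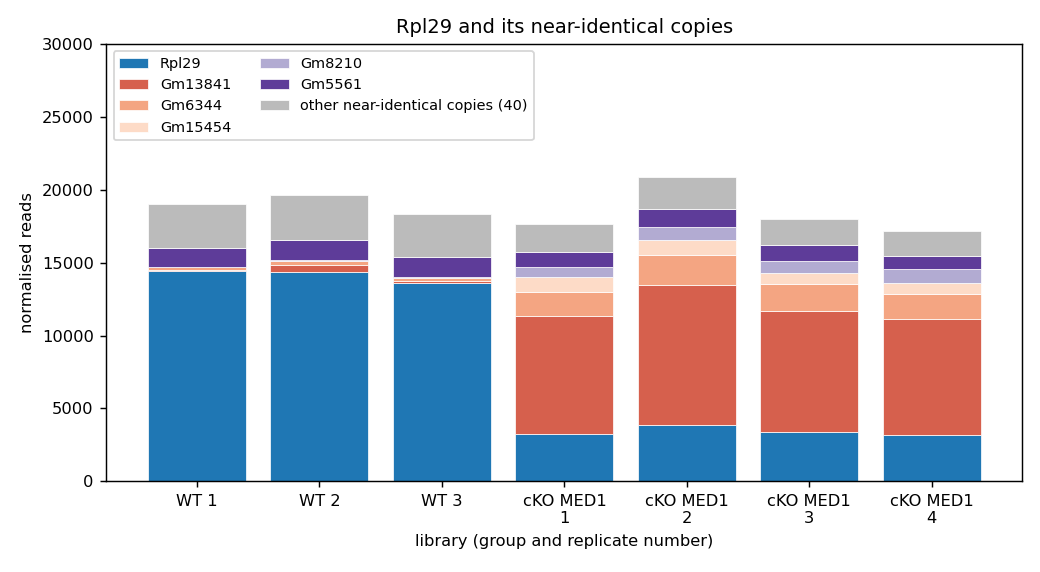
Stacked normalised reads (vertical axis) of Rpl29, 5 named near-identical copies and the other 40 copies in each of the 7 libraries. The full bars reach 17179 to 20894 reads in cKO MED1 and 18317 to 19689 in WT, while the Rpl29 part goes from at least 13587 in WT to at most 3829 in cKO MED1 and the Gm13841 part makes up most of the rest in cKO MED1.

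The 20 tested copies differ from Rpl29 at 3 to 26 aligned bases, and the following stretches show 1 of 2 positions at which all risen copies differ from it in the same way. They are coding positions 271 to 330 of Rpl29, counted from 1 at the first base of its coding sequence, and the aligned bases of 3 copies, each read 5' to 3' on its own strand from the GENCODE M21 transcripts of GRCm38. The capital marks position 300, which lies at position 106431266 of chromosome 9 in the last of 4 exons. Gm13841 rose, Gm11449 carries the same base and was not called, and Gm12447 fell.
Rpl29: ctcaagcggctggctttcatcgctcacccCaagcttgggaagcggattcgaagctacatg
Gm13841: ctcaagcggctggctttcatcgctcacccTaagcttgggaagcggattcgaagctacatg
Gm11449: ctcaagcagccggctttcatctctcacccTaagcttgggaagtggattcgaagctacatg
Gm12447: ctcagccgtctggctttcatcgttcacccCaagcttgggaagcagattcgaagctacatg

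The substitution C300T was carried by 14 of the 20 tested copies, and all 10 risen copies were among them. Of the other 4 carriers, Gm5561 was called lower at -0.40 (limma, adjusted p = 0.0198) and 3 were not called. Rpl29's own base at that position was kept by 5 tested copies, of which none rose and 2 fell. These 5 differ from Rpl29 at 9 to 26 aligned bases, while the copies that differ at only 3 or 4 all carry C300T and all rose. Other risen copies differ at 10 to 14. The base at position 300 thus goes along with closeness to Rpl29, and the parts of each were not tested. T423C was also in all 10 risen copies, but 18 of the 20 tested copies carried it. Gm13841 and Gm8210 differed from Rpl29 only by C72A, C300T and T423C over the aligned bases. Of 13 substitutions that at least 3 tested copies carried and at least 3 did not, C300T had rank 5 by the difference in median log2 fold change, 1.90 with it and 0.25 without it. T441C had rank 1, with medians of 0.23 with it and 2.42 without it, and 1 of its 8 carriers rose. The deposited values do not give the bases of the reads, and the position was singled out after the values had been seen. Whether a sequence difference between the groups moved reads from Rpl29 to its copies in counting was not tested, so -2.05 for Rpl29 and the rises of its copies are changes in assigned reads and need not be changes in transcripts of each gene.

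**Figure D4:**
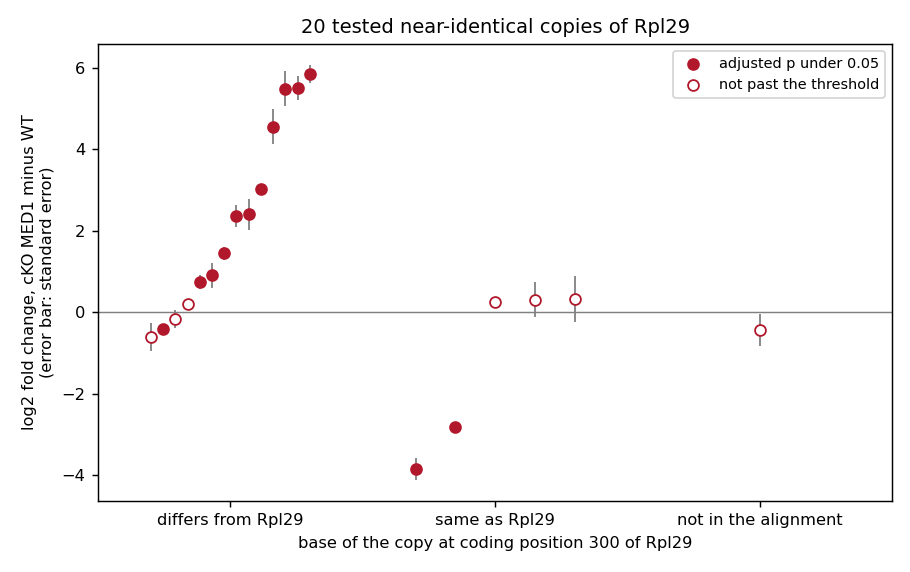
Log2 fold change (vertical axis, cKO MED1 minus WT, with its standard error) of the 20 tested near-identical copies of Rpl29, split along the horizontal axis by whether their base at coding position 300 differs from that of Rpl29. All 10 copies that rose are among the 14 that differ, and the 5 that match hold 2 copies that fell.

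Rplp0, Rplp1 and Rplp2 form the stalk of the large subunit, the flexible arm that recruits translation factors. Rplp0 had 104618, 113364 and 97196 normalised reads in WT and 75416, 104610, 93510 and 74168 in cKO MED1, and the groups overlapped. Its log2 fold change was -0.29 with a standard error of 0.17 (limma, adjusted p = 0.216). Rplp2 had 25770, 25370 and 26226 in WT and 20636, 25286, 23336 and 20565 in cKO MED1, so every cKO MED1 library lay below every WT library, the nearest by under 1%. It was not called, at -0.21 with a standard error of 0.11 (limma, adjusted p = 0.175). Rplp1 stood at -0.19 with a standard error of 0.14 (limma, adjusted p = 0.311).

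Measured against the family in the same library, the median of the 3 stalk genes lay lower in every cKO MED1 library, though Rplp2 by itself overlapped between the groups. The family median is here the median log2 level of the 78 genes in the library, not the median of their differences given above. The median departure of the 3 genes from it, with the WT mean of each gene at 0, was 0.06, -0.03 and -0.06 in WT and -0.22, -0.31, -0.34 and -0.33 in cKO MED1. In cKO MED1 replicate 1 that median is the value of Rplp1, without the reads of its copies given below. With the family median set equal in all libraries, 9 of the 78 genes had all cKO MED1 libraries below all WT libraries. As a share this is near the 9.83% of all tested genes on that scale. The 9 genes were Rplp0, Rplp1, Rpl29, Rpl3, Rpl10, Rpl19, Rps4l, Rps9 and Rps10. Another 4 (Rpl31, Rpl22, Rps23 and Rpl3l) had all cKO MED1 libraries above, a share below the 13.2% of all tested genes. On the same scale limma called 1 member lower (Rpl29, where 6.15% of all genes were called lower) and 1 higher (Rpl3l, where 8.46% were called higher). As shares of the 78 genes, both counts of calls lie below the background. Rps4l departed by -0.82 without passing the threshold (limma, adjusted p = 0.0552). The other 75 genes departed by -0.35 (Rplp0) to 0.39 (Rps24), with adjusted p in limma of 0.170 and 0.153 for these 2.

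The copies of Rplp1 also held more reads in cKO MED1, with a smaller gain in reads than the Rpl29 copies but a larger ratio. Its 9 near-identical copies summed to 260, 407 and 264 normalised reads in WT and 2547, 3486, 3221 and 2967 in cKO MED1, which is 9.84 times as many on average. All 3 tested copies rose, Gm11942 from a mean of 83.5 to 2428, Gm17511 from 8.98 to 224 and Gm10073 from 216 to 394. The copies held 0.707% ± 0.156 (SD, n = 3) of the reads of Rplp1 and its copies in WT and 7.43% ± 0.239 (SD, n = 4) in cKO MED1. The reads of Rplp1 with its copies gave a log2 fold change of -0.09 (limma, adjusted p = 0.639). No single substitution was shared by the 3 risen copies.

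Rpl15, another large subunit protein, had a smaller shift by ratio in the sum of its copies. Its 15 copies summed to a mean of 18277 normalised reads in WT and 22506 in cKO MED1, a ratio of 1.23 where that of the Rpl29 copies was 3.07, and the sums of single libraries overlapped between the groups. They held 50.8% ± 0.977 (SD, n = 3) of the reads of Rpl15 and its copies in WT and 58.4% ± 2.67 (SD, n = 4) in cKO MED1. Of its 8 tested copies 5 rose, and those with the most reads in cKO MED1 were Gm10020, from 138 to 1657, Gm10224, from 260 to 1484, and Gm8885, from 14.0 to 511. Rpl15 itself had 17630, 19360 and 16183 normalised reads in WT and 14346, 18282, 16237 and 14696 in cKO MED1, a log2 fold change of -0.16 (limma, adjusted p = 0.303). The sum with its 15 copies stood at 0.09 (limma, adjusted p = 0.659). T81C and A156G, counted from the first base of the Rpl15 coding sequence, were each carried by 4 of the 5 risen copies and by 5 of the 8 tested.

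Few copies of the other members were called. In all, 72 of the 80 genes have 748 near-identical copies in the table, with a median of 6 per gene, and 348 of the copies were tested. The search used the 79 members that have a coding transcript. Of these 348, 24 (6.90%) rose and 6 (1.72%) fell, shares below the 13.4% and 14.6% of all tested genes, with a median log2 fold change of 0.16. Copies of Rpl29, Rpl15 and Rplp1 made up 18 of the 24 that rose. Because reads from such copies can be split or shared in counting, the value of a single member with copies is uncertain to that extent. Rpl8, Rpl41, Rps3 and Rps9 have no near-identical copy by this definition, which can miss copies within longer transcripts. Their log2 fold changes were -0.20, 0.25, 0.06 and -0.08, none of them called.

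Among the other large subunit genes, 42 besides the stalk, Rpl29 and Rpl3l, the log2 fold change ranged from -0.20 for Rpl8 to 0.43 for Rpl17, with 26 above 0, and none was called by limma or edgeR. At an unadjusted p under 0.05 limma took 1 of the 42 (Rpl22), and DESeq2 called 1 (Rpl17). Rpl3 and Rpl4 reach towards the peptidyl transferase centre and the exit tunnel, and stood at -0.17 and -0.14. Rpl5 and Rpl11, which together with 5S ribosomal RNA can bind the p53 regulator Mdm2, stood at 0.21 and 0.07. Rpl17, at the exit of the tunnel, had 49888, 62944 and 52554 normalised reads in WT and 48444, 88084, 86180 and 80557 in cKO MED1. In Rpl17, 3 cKO MED1 libraries lay above all WT libraries and replicate 1 lay below them. The test gave 0.43 with a standard error of 0.21 (limma, adjusted p = 0.137), and 0.62 without cKO MED1 replicate 1 (limma, adjusted p = 0.0130). Rpl22, which is known from work on lymphocyte development, stood at 0.30 (limma, adjusted p = 0.108) and, without that library, at 0.39 (limma, adjusted p = 0.0170).

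Among the 30 small subunit genes besides Rps4l, the range was from -0.25 for Rps2 to 0.45 for Rps24, with 18 above 0, and none was called by limma or edgeR. At an unadjusted p under 0.05 limma took 0 of the 30, and DESeq2 called 1 (Rps24). Rps24, one of the genes mutated in Diamond-Blackfan anaemia, had 61802, 81921 and 65384 normalised reads in WT and 60317, 108149, 115569 and 106815 in cKO MED1. Its log2 fold change was 0.45 with a standard error of 0.23 (limma, adjusted p = 0.145), and 0.66 without cKO MED1 replicate 1 (limma, adjusted p = 0.0144). Rps25 and Rps23, the latter part of the decoding centre, stood at 0.40 and 0.30 (limma, adjusted p = 0.200 and 0.169). All 3 had cKO MED1 replicate 1 below every WT library and the other 3 cKO MED1 libraries above every WT library. Rps2, a protein of the mRNA entry channel, had 57837, 57388 and 50976 in WT and 45123, 56626, 47548 and 38844 in cKO MED1, and the groups overlapped (limma, adjusted p = 0.216). Rps6, the substrate of the S6 kinases downstream of mTOR, stood at 0.07, and Rps27a, which is made as a fusion with ubiquitin, at 0.20.

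Per kb of exon, the 75 genes had a median of 19071 normalised reads, from 2354 for Rpl24 and 4538 for Rps27l to 80932 for Rplp1, 57081 for Rplp0 and 53858 for Rpl32. Levels per kb and log2 fold changes showed no monotone relation over the 75 genes (Spearman rho = -0.04, a description across genes that share libraries and scaling). Log2 fold changes were lower in genes with more GC in the coding sequence (Spearman rho = -0.47, n = 75) and in genes with longer coding sequences (Spearman rho = -0.42, n = 75). The 25 genes of lowest GC content, at most 50.6%, had a median log2 fold change of 0.16, and the 25 of highest GC content, at least 54.6%, one of -0.04. Rps24, Rpl17 and Rps25 have coding GC contents of 46.1%, 48.2% and 48.5%, and Rplp0, Rplp1 and Rplp2 of 56.0%, 58.2% and 56.8%. Whether base composition has a part in the order of the genes was not tested.

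**Figure D5:**
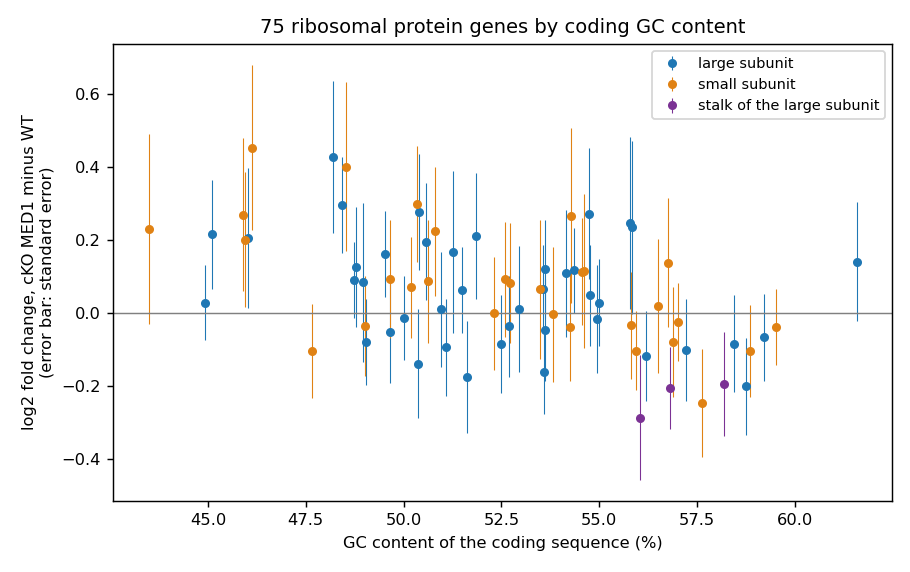
Log2 fold change (vertical axis, cKO MED1 minus WT, with its standard error) against the GC content of the coding sequence (horizontal axis, in %) for 75 ribosomal protein genes coloured by subunit. Values drift downward with GC content (Spearman rho = -0.47), and the 3 stalk genes lie at the lower right.

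Rpl3l, Rpl10l, Rpl39l, Rps4l and Rps27l are paralogs of other members, of which Rpl3l is known from striated muscle and Rpl10l and Rpl39l from testis. Rpl3l, 77.1% identical to Rpl3 over the aligned coding bases, had 0.688, 4.90 and 2.395 normalised reads in WT and 8.13, 11.7, 14.5 and 34.8 in cKO MED1. Every cKO MED1 library lay above every WT library, and the log2 fold change was 2.30 with a standard error of 0.68 (limma, adjusted p = 0.0305). Rpl3 had 79830 to 91935 normalised reads in WT. The level per kb of 1429 olfactory and vomeronasal receptor genes, which B cells are not known to express, moved with Rpl3l. It was 0.0929, 0.207 and 0.168 in WT and 0.198, 0.279, 0.527 and 0.901 in cKO MED1, in the same order of libraries within cKO MED1. Over the exons of Rpl3l that level comes to 0.153 to 1.48 reads per library, below the reads of Rpl3l in each library. With that level subtracted, Rpl3l stood at 2.37 (limma, adjusted p = 0.0304). Without WT replicate 1 it stood at 1.77 and without WT replicate 3 at 2.28, with adjusted p in limma of 0.134 and 0.0610. The call was thus lost without either library. With any single cKO MED1 library other than replicate 1 left out, Rpl3l did not pass the filter and was not tested. With 1 surrogate variable or with sex added to the fit, Rpl3l stood at 0.89 and 2.26 and was not called.

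Rpl10l had 0, 0 and 0.798 normalised reads in WT and 1.35, 1.95, 3.95 and 9.15 in cKO MED1, with cKO MED1 above WT throughout, and it did not pass the filter. Rpl39l had 7.57, 35.1 and 5.59 in WT and 2.71, 2.92, 11.9 and 10.98 in cKO MED1, with overlapping groups. Their ubiquitous partners stood at -0.09 for Rpl10 and 0.22 for Rpl39, and neither was called.

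Rps4l, annotated as a transcribed processed pseudogene on chromosome 6 and 81.2% identical to Rps4x, had 63.3, 98.7 and 64.7 normalised reads in WT and 44.7, 34.1, 55.3 and 42.1 in cKO MED1. The groups did not overlap, and the log2 fold change was -0.75 with a standard error of 0.24 (limma, adjusted p = 0.0383). The gene overlaps Tmtc1, and since the strand setting of the counting is unknown here, reads from Rps4l and Tmtc1 may be mixed. The call was lost without WT replicate 1 or 2 and without cKO MED1 replicate 2 or 4, with adjusted p in limma of 0.0709, 0.136, 0.0877 and 0.0741. Over all 23 alternatives the call of Rps4l was lost under 10. Among these were the sex covariate, 1 surrogate variable, the replicate block and the filter of CPM 1 in 3 libraries. Rps4x stood at -0.10 (limma, adjusted p = 0.554). Rps27l, a p53-responsive paralog of Rps27, had 3535, 3437 and 2782 in WT and 2089, 4087, 5808 and 4182 in cKO MED1, with overlapping groups (limma, adjusted p = 0.513).

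The 4 members on the X chromosome showed no called change, at -0.10 for Rps4x, -0.09 for Rpl10, 0.09 for Rpl36a and 0.22 for Rpl39. Rpl10, which the large subunit needs to join the small one, had 40461, 41052 and 39846 normalised reads in WT and 32066, 42335, 42480 and 35834 in cKO MED1. The 3 members within 5 Mb of Med1 on chromosome 11 were Rpl19, Rpl23 and Rpl27, at -0.02, -0.08 and 0.01, and none was called.

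The starts of the genes were read from RefSeq promoter windows of GRCm38.p6, which matched 59 of the 80 genes. A run of at least 6 C or T bases within 20 bases of the annotated start was present in 71.2% of these genes, against 41.5% of the tested genes with a window. CGGAAG, a core of ETS factor sites such as that of GABPA, was found on either strand of the 300-base window in 67.8% of the members and 32.2% of the tested genes. CACGTG, the E-box core bound by MYC with MAX, was found in 10.2% and 11.2%, and TATAAA in 10.2% and 9.004%, with both strands searched and overlaps between motifs allowed. The following 30-base windows, 15 bases before and 15 from the start, show what the starts of genes at either end of the range look like, and capitals mark the longest unbroken run of C and T. Rplp0, Rps2, Rplp2 and Rpl15 are among the lowest by log2 fold change, and Rpl35, Rpl31, Rps23 and Rps25 among the highest.
Rplp0 (chr5:115559452-115559481, plus strand): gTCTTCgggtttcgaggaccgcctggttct
Rps2 (chr17:24720048-24720077, plus strand): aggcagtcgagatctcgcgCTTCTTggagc
Rplp2 (chr7:141447636-141447665, plus strand): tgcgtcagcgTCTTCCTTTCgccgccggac
Rpl15 (chr14:18270972-18271001, minus strand): gtgggagaaagCCTTCTTCCTTTCCTCTgg
Rpl35 (chr2:39005117-39005146, minus strand): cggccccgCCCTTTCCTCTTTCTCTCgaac
Rpl31 (chr1:39367836-39367865, plus strand): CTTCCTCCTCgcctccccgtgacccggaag
Rps23 (chr13:90923107-90923136, plus strand): gccttcggctgggcggggCTTCCCgcaatg
Rps25 (chr9:44407699-44407728, plus strand): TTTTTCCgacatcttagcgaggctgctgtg
The run was 5 to 10 bases long in Rplp0, Rps2 and Rplp2, 17 in Rpl15 and 18 in Rpl35, so within these windows both ends of the range hold short and long runs. In Rplp0, Rpl31 and Rps25 the run lies wholly before the annotated start, and in Rpl31 and Rps25 it reaches the edge of the window. The lengths therefore need not be those of terminal oligopyrimidine tracts.

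In the lists of genes that act with the ribosomal proteins, every gene called by limma was lower in cKO MED1. Of 23 tested chaperones, importers and handling factors, 19 were called lower and 0 higher by limma, with a median log2 fold change of -0.53. Among all tested genes 14.6% were called lower, and among the 6020 with the highest means 27.8%. Grwd1, the chaperone of Rpl3, had 989 ± 223 normalised reads (SD, n = 3) in WT and 503 ± 35.9 (SD, n = 4) in cKO MED1, or -0.95 as a log2 fold change (limma, adjusted p = 0.00139). Heatr3, an adaptor that brings Rpl5 into the nucleus, stood at -0.77, and the importins Ipo5 and Ipo7 at -0.63 and -0.56, all called. Rpl3 and Rpl5 themselves were not called.

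Of 24 tested translation factors and other genes with terminal oligopyrimidine mRNAs, 8 (33.3%) were called lower and 0 higher, with a median of -0.20, and the share is near the 27.8% of the abundant genes. Vim stood at -0.57, Eif3l at -0.51, Nap1l1 at -0.50 and Gas5, a host of small nucleolar RNAs, at -0.46. Of 19 regulators of such mRNAs, 6 (31.6%, likewise near that share) were called lower and 0 higher, with a median of -0.13, among them Cnbp at -0.59, Mlst8, an mTOR partner, at -0.41, Larp4 at -0.41 and Ssb at -0.34. Of 16 genes of ribosome quality control and hibernation, 7 (43.8%) were called lower and 0 higher, such as Otud6b at -0.63, Usp10 at -0.56, Serbp1 at -0.46 and Abce1, the recycling factor, at -0.39. Of 15 transcription factors reported at ribosomal protein promoters, 6 (40.0%) were called lower and 0 higher. Myc had 3475 ± 287 normalised reads (SD, n = 3) in WT and 2145 ± 424 (SD, n = 4) in cKO MED1, or -0.71 as a log2 fold change (limma, adjusted p = 0.00591), and Max, Gabpa and E2f4 stood at -0.39, -0.34 and -0.35.

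The proteins of the mitochondrial ribosome, which share no gene with the family, had a median log2 fold change of -0.31. Of 76 tested genes, 31 (40.8%) were called lower and 0 higher, beside 14.6% and 13.4% of all tested genes. Among the 6020 genes with the highest means the shares were 27.8% lower and 5.60% higher. In these lists and the mitochondrial one, edgeR and DESeq2 also called 0 genes higher, and at an unadjusted p under 0.05 limma took 2 regulators and 1 quality control gene as higher. Of 8 cytosolic ribosomal proteins whose symbols the name rule does not take, 1 was called. Rpl7l1, a paralog of Rpl7, had a log2 fold change of -0.41 (limma, adjusted p = 0.0151), while Rpsa, Fau and Gnb2l1, the older symbol of Rack1, stood at -0.06, 0.13 and -0.07.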

How the data were processed

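The authors deposited 1 table of values for 7 libraries, a signal made of read counts divided by 1 size factor per library. In it 100% of values were whole multiples of the library's smallest step within 1e-06, so whole reads were recovered. The build was GRCm38, and the submitters' processing notes name DESeq2, R 3.4, featureCounts, Subread 1.5.0-p3 and STAR 2.4.0a. Which tool made which step, the strand setting and the handling of reads with several matches are not given in the sources used here. Per the labels' protocols, libraries came from a stranded total RNA kit after ribosomal RNA depletion, with 14 PCR cycles and paired reads of 150 bp.

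Recovered reads were scaled with TMM (edgeR 4.0.16), filtered with filterByExpr and tested on log2(normalised reads + 1) in R 4.3.3 by limma 3.58.1, whose variance prior followed the mean level, over all 18062 genes with Benjamini-Hochberg adjustment. Fold changes on that scale understate changes of low genes. The edgeR quasi-likelihood test on the recovered reads called 5340 genes, and limma 5065. In a simulation of the comparison over 18062 genes, 12.1% of 66 genes changed by 0.5 on the log2 scale were called. Of 67 genes changed by 1 it was 70.1%, and of 67 changed by 2 it was 95.5%. The changed genes there were few, drawn from all levels of reads and given 1 common spread. Those shares therefore need not hold for the abundant members. In the data, 31 of 76 mitochondrial ribosomal protein genes were called, with a median of -0.31 over the 76. Positions came from GENCODE M21 by symbol, which placed 94.1% of features. Copies were found with blastn 2.17.0, and sequences in promoters came from RefSeq.

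Members, lists and tests were chosen with earlier results of these data known. Named members are all called ones, the 5 farthest below and above the family median, paralog pairs, X-linked ones, those within 5 Mb of Med1, and the 3 most and least abundant per kb. From each other list up to 4 genes with the smallest adjusted p are named, and further members are named for their role. The single values of 1 member are not reported here. Rules for copies and bases, and the sums over copies, were set after values were seen. Alternatives were other scalings, filters, a pseudocount of 5, edgeR, DESeq2 1.42.0, sva 3.50.0, sex, the replicate number and each library left out.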

Additional observations from a re-analysis of the deposited data

Results flagged for a closer look

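Of 30 results checked for a single cKO MED1 library far from the other 3, 1 was singled out, where chance alone would single out about 1 in 20. Rps24 had 60317 normalised reads in cKO MED1 replicate 1 against 108149, 115569 and 106815 in the others. The gap to the nearest library was 0.842 of the whole range, above the limit of Dixon's test for 4 values.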

How the results depend on the processing

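Rpl29 was called lower under 22 of 23 alternatives, the exception being the sum with its copies. Of genes called lower, the main count of 2 became 1 with 1 surrogate variable, the filter of CPM 1 in 3 libraries, the replicate block, the ribosomal protein median set equal, the sex covariate, the sum with copies, and without cKO MED1 replicates 3 and 4. It was 1 to 2 with single libraries left out. Of genes called higher, the main count of 1 became 0 with the surrogate variable, the CPM filter, the sex covariate and without cKO MED1 replicates 3 and 4, and 3 with DESeq2. It was 0 to 15 with single libraries left out. Where the count was 0 under the CPM filter or without cKO MED1 replicate 2, 3 or 4, Rpl3l had not passed the filter. The family median of 0.06 was -0.19 under scaling by total reads, where the median of all genes moved from 0.04 to -0.20, and -0.04 to 0.14 with single libraries left out. The large minus small subunit median of -0.04 was -0.15 with the sex covariate, which rests on 1 cKO MED1 library, and -0.08 to 0.002 with single libraries left out. The share of all reads, -0.75 percentage points in cKO MED1 minus WT, was 0.16 without mitochondrial rRNA and 0.87 over nuclear coding reads, and -1.23 to -0.47 with single libraries left out. The cause of these shifts was not tested. Same-numbered libraries had correlations of deviations of 0.51, -0.23 and 0.16, and pairs of other numbers ran from -0.58 to 0.40. So few libraries cannot decide whether same-numbered ones pair. Under the replicate block the family median was 0.06, the subunit difference -0.02 and the number of genes called over all genes 3741. That number was 5065 in the main fit, 228 with the sex covariate and 241 with 1 surrogate variable, so most calls were lost with either. The shares called over all genes and in the lists above come from the main fit, which holds neither term. Depth limits Rpl3l, Rpl10l, Rpl39l and Rps4l, which had under 100 normalised reads in every library.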
